A study of Mus musculus with 24 samples.

Results

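This account covers 55 mouse genes of the cell cycle, measured in alveolar macrophages, the resident phagocytes of the air sacs, at 5 ages after birth with and without lipopolysaccharide (LPS), the endotoxin of Gram-negative bacteria that macrophages sense through TLR4. The genes were taken from a list and sorted by role into 11 genes of the passage from G1 to S phase, 18 genes of S phase and 26 genes of mitosis. A gene was tested if it reached 1 FPKM (counts per kilobase of exon, scaled to library size) in 2 or more libraries, which 52 of the 55 did, among 11774 tested genes in a table of 56691. All 18 S phase genes, all 26 mitotic genes and 8 of the 11 G1/S genes were tested. The 3 genes that did not meet this rule were Ccnd1, Ccnd3 and E2f7. Their highest printed levels in any library were 0.495, 0.998 and 0.762 FPKM. Printed levels use TMM-scaled totals and the rule uses plain totals, so a printed level just under 1 may have reached 1 there.

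Macrophages were washed from mouse lungs on day 1 (D1), day 3 (D3), day 7 (D7), day 21 (D21) or day 49 (D49) after birth and pooled over several mice. Per the labels, they then spent 4 h either in plain medium (control) or in medium holding E. coli LPS at 400 ng/mL. There were 2 control libraries at D1 and D7 and 3 at each other age, and 3 LPS libraries at D1 and 2 at each other age. The labels state neither strain nor sex. Pooling leaves the spread between mice unmeasured, and nothing says that the libraries of a group come from separate mice, so p-values measure the spread between these libraries, which may be technical.

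Total counts of the 24 libraries ran from 15.8 to 23.3 M (10 to the power 6). The libraries differed in how GC-rich transcripts were represented: the GC deviation, the log2 deviation of the most GC-rich genes minus that of the most GC-poor, ran from -3.17 to 2.84 and was beyond 1 in either direction in 10 libraries. It was positive beyond 1 in 5 libraries of D1 and D3 and negative beyond 1 in 5 libraries of D21 and D49, so it moved with age. It also went with the replicate number: all 10 libraries numbered 1 were within 1, and the 10 libraries beyond 1 were 7 of the 10 numbered 2 and 3 of the 4 numbered 3, in both treatments. The labels record no batch, and a batch and the replicate number cannot be told apart. The share of counts from mitochondrial genes was 2.25 to 4.53% in D1, D3 and D7 control libraries and 4.34 to 8.47% in D21 and D49 control libraries. All 17 alveolar macrophage markers were tested, and their summed level was 3170 to 3210 FPKM in D1 control libraries and 18500 to 28100 in D49 control libraries. Markers of other cells moved with age or treatment: the summed level of 8 monocyte markers was 82.5 to 177 FPKM in D1 control and 8.27 to 11.7 in D21 control libraries. A set of 6 gland genes summed to 0.225 to 0.684 FPKM in D1 control, 742 to 1150 in D1 LPS, 1300 to 1570 in D21 control and 8.62 to 8.84 in D21 LPS libraries. No measured marker on these lists was at 0 in every library, and the lung epithelial markers summed to 65.2 to 71.6 FPKM in D1 control and 15.2 to 22.4 in D49 control libraries.

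The cell cycle is driven by cyclin-dependent kinases that are switched on by cyclins and held back by inhibitors. D-type and E-type cyclins carry cells from G1 into S phase by releasing E2F transcription factors, S phase genes load helicases on origins and supply nucleotides, and mitotic genes, many of them controlled through CHR and CCAAT promoter elements by the DREAM complex and B-MYB with FOXM1, build the spindle and divide the cell. Alveolar macrophages are laid down around birth and keep their numbers by dividing in place, and inflammatory signals such as LPS are known to slow division of macrophages in culture.

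Promoters are shown first. RefSeq promoters (GRCm38.p6) were found for 46 of the 55 genes, 53 promoters in all, and the 250 bases before each start were searched on both strands for 4 motifs. The CHR element, bound by DREAM, was searched as TTTGAA or TTCGAA and stood in 45.8% of 24 mitotic promoters, 16.7% of 18 S phase promoters and 9.09% of 11 G1/S promoters, beside 12.9% of the promoters of all tested genes and 17.1% of all 32851 promoters. CCAAT, the site of NF-Y, stood in 87.5% of mitotic, 77.8% of S phase and 36.4% of G1/S promoters, beside 35.6% of the promoters of tested genes and 33.8% of all promoters. E2F sites, searched as TTTGGCGC, TTTCGCGC or TTCCCGCC, stood in 27.8% of S phase promoters, 4.17% of mitotic ones and 0 of the 11 G1/S promoters. The shares were 4.72% in the promoters of tested genes and 2.48% in all promoters. The NF-kappaB consensus was in 1 of the 53 promoters, that of Birc5, beside 0.396% of the promoters of tested genes and 0.356% of all promoters. A match is a stretch of letters, not a shown binding site. The sequences below run 5′ to 3′ on the gene's strand and end at the base before the start, with CHR and E2F matches in capitals on either strand (TTCAAA is TTTGAA read on the other strand).
Cdk1 (chr10:69352913-69353162, minus strand), which fell with LPS and holds both motifs: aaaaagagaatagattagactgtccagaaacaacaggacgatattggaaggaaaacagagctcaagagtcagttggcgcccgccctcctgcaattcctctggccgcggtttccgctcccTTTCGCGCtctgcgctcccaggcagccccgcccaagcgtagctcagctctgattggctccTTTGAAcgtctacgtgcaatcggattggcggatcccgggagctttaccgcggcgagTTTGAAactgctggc
Kif11 (chr19:37376132-37376381, plus strand), which fell with LPS and holds a CHR near the start: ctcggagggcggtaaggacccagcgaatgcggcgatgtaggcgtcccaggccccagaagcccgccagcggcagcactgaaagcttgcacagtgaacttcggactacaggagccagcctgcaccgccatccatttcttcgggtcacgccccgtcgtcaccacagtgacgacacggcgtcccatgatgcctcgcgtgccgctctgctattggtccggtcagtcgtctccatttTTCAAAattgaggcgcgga
Top2a (chr11:99024190-99024439, minus strand), which fell with LPS and holds 4 CHR matches: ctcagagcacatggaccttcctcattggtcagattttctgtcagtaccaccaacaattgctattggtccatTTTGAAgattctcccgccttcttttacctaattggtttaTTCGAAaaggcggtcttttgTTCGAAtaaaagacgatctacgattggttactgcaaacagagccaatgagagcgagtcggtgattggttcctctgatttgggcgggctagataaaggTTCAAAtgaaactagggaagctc
Bub1b (chr2:118597961-118598210, plus strand), the mitotic gene that rose with LPS, with a CHR match 188 bases before the start: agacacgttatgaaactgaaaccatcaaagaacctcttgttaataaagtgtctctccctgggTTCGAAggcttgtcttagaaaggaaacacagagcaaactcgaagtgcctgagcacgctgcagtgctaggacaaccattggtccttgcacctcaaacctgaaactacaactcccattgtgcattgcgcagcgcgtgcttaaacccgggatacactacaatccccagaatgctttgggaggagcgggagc
Ccne1 (chr7:38107491-38107740, minus strand), the gene with the largest rise, which holds none of the 4 motifs: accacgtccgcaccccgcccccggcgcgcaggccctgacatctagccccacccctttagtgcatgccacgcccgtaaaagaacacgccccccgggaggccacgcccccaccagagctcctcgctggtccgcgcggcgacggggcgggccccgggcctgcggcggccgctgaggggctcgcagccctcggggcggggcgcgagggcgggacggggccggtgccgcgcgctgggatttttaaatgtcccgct
Mcm5 (chr8:75109259-75109508, plus strand), an S phase gene with 2 overlapping E2F matches that did not pass the test for LPS: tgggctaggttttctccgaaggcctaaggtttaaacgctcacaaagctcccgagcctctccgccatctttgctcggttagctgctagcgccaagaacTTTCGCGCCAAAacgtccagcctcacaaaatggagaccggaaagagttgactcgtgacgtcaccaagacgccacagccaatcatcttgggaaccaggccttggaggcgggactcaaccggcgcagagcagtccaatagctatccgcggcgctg
The CHR matches of Cdk1, Kif11 and Top2a nearest to the start begin 15, 19 and 23 bases before it. The promoters of Cenpf, Kif23, Ccnb1 and Bub1, which also fell with LPS, hold no CHR match. Mki67, with the smallest fall among mitotic genes that passed, has 2 matches. Ccnb2 and Cdc20, which did not pass over ages, have 1 each. Whether a motif went with the LPS effect was not tested.

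The first comparison is LPS against control at the same age. Averaged over the 5 ages, 34 of the 52 genes fell with LPS and 4 rose, where 18.8% of all tested genes fell, 14.9% rose and 33.6% did either (edgeR quasi-likelihood test, adjusted p under 0.05 over all tested genes). The falls were mainly mitotic: 23 of 26 mitotic genes fell and 1 rose, 8 of 18 S phase genes fell and 1 rose, and 3 of 8 G1/S genes fell and 2 rose. The median log2 fold change was -1.48 in mitotic genes, -0.34 in S phase genes and 0.04 in G1/S genes, beside 0.01 over all tested genes. The largest falls were those of Cenpf, Kif23, Kif11, Ccna2, Anln and Hmmr, and the rises were those of Ccne1, Bub1b, Ccnd2 and Cdt1. RNA came from whole cell samples, so fewer cells of a type and less RNA per cell cannot be told apart. The 25 mitotic genes other than Bub1b had negative log2 fold changes at all 5 ages. With 2 or 3 libraries per group, many genes have LPS and control libraries apart, in either direction. Of all tested genes these were 25.1% at D1, 28.2% at D3, 63.5% at D7, 50.5% at D21 and 33.8% at D49. Markers of other cells moved with LPS as well. A set of 6 muscle genes was lower with LPS at all 5 ages without overlap, at 7.84 to 92.3 FPKM in D21 control and 0 to 0.392 FPKM in D21 LPS libraries, and all 6 fell over ages, with a median of -5.99. The summed gland genes were higher with LPS at D1, D3 and D7 and lower at D21 and D49. The summed monocyte markers were higher with LPS at D7, D21 and D49 (42.0 to 50.9 FPKM against 8.27 to 11.7 at D21). The summed neutrophil markers were higher with LPS at D3 (173 to 224 FPKM against 82.8 to 123) and D7 (89.7 to 95.7 against 61.2 to 68.4). Their sum was lower at D21 (26.7 to 33.6 against 40.6 to 51.2). Gene by gene, 0 of the 7 tested neutrophil markers rose and 1 fell at D3, and the same held at D7. Log2 fold changes were positive in 5 of the 7 at D3 (median 1.0) and at D7 (median 0.42). At D21, 5 of the 7 had positive log2 fold changes (median 0.84), with 1 rise and 1 fall. Over ages 3 of the 7 rose and 1 fell, with a median of 1.06. At D1 lung epithelial markers (104 to 138 against 65.2 to 71.6) and erythroid markers (45.2 to 88.9 against 25.6 to 27.1) were higher with LPS. The mitochondrial share was lower with LPS at D7 (3.22 to 3.78% against 4.30 to 4.42%) and D21 (3.66 to 3.81% against 4.34 to 6.10%). Over the 52 genes the rank correlation of GC content with the log2 fold change was 0.47, and 0.27 with the GC deviation as a covariate. The part of these in the results was not tested.

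**Figure D1:**
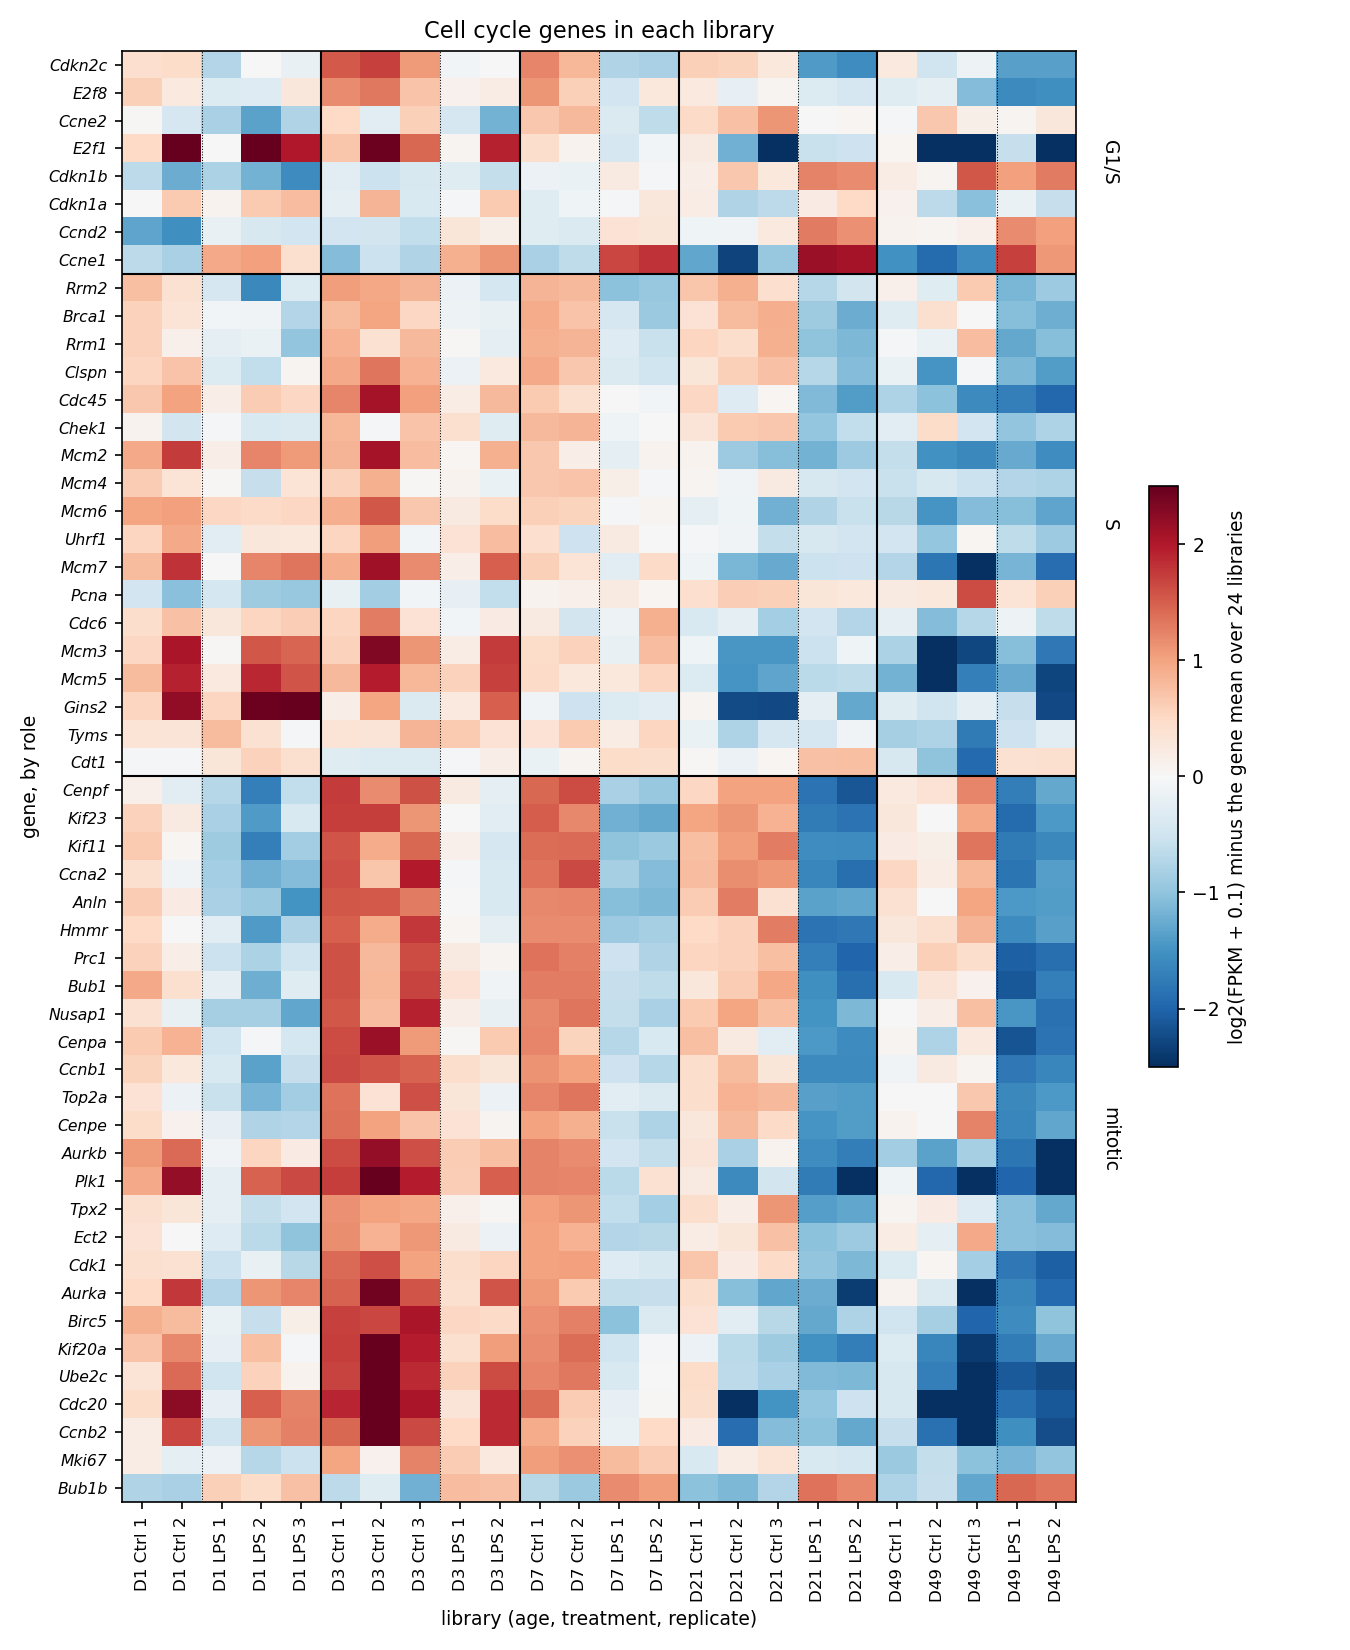
Level of the 52 tested genes (rows, by role and then by LPS effect) in each of the 24 libraries (columns, by age, treatment and replicate), as log2(FPKM + 0.1) minus the gene's mean over the libraries, with colours capped at 2.5 in either direction. Many mitotic genes are high in control libraries of D3 and D7 and low in LPS libraries of D21 and D49, while Bub1b, Ccne1 and Ccnd2 run the other way with LPS.

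Among the mitotic genes, Ccna2 encodes cyclin A2, the partner of CDK2 and CDK1 from S phase to mitosis. In control libraries Ccna2 stood at 10.5 and 7.51 FPKM (D1), 24.4, 13.0 and 31.8 (D3), 20.6 and 25.2 (D7), 13.7, 17.9 and 17.1 (D21) and 11.5, 9.07 and 14.2 (D49). With LPS it stood at 4.36, 3.41 and 3.71 FPKM (D1), 7.76 and 6.10 (D3), 4.47 and 3.73 (D7), 2.51 and 2.10 (D21) and 2.18 and 3.01 (D49). Every LPS library lay below every control library of its age. Ccna2 fell by 2.08 ± 0.15 on the log2 scale averaged over ages (edgeR, adjusted p = 2.3e-09) and passed at each age, from -1.23 ± 0.31 at D1 to -2.82 ± 0.35 at D21. Its exons overlap those of Exosc9 on the other strand over 428 bases, and the sources used here do not say whether counting used the strand.

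Top2a, the topoisomerase that untangles sister chromatids, gave the same picture at higher levels. Its control levels were 19.7 and 13.9 FPKM (D1), 39.6, 19.8 and 47.1 (D3), 35.9 and 38.9 (D7), 20.8, 28.1 and 27.2 (D21) and 15.3, 15.5 and 24.5 (D49). Its LPS levels were 10.4, 6.82 and 8.36 FPKM (D1), 19.0 and 13.9 (D3), 12.6 and 12.0 (D7), 5.90 and 5.75 (D21) and 4.94 and 5.60 (D49). LPS libraries were below control libraries at all 5 ages, and D3 control replicate 2, at 19.8 FPKM, came closest to its LPS group. Top2a fell by 1.52 ± 0.15 (adjusted p = 1.1e-07) over ages and by 2.12 ± 0.34 at D21. It passed at D3, D7, D21 and D49, and the D3 call (adjusted p = 0.042) was lost in 16 of the 24 fits that left out 1 library.

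Cdk1, the kinase that drives entry into mitosis, and its partner cyclin B1, encoded by Ccnb1, both fell. Cdk1 was at 5.61 and 5.57 FPKM (D1), 11.5, 13.1 and 8.60 (D3), 8.65 and 8.77 (D7), 6.96, 4.93 and 5.97 (D21) and 3.34, 4.40 and 2.31 (D49) in control libraries. It was at 2.91, 3.73 and 2.58 FPKM (D1), 5.82 and 6.17 (D3), 3.36 and 3.19 (D7), 2.08 and 1.88 (D21) and 1.15 and 0.954 (D49) in LPS libraries. The groups did not overlap at any age, and the lowest values of all were those of the D49 LPS libraries. Ccnb1 was at 12.1 and 9.85 FPKM (D1), 26.0, 24.7 and 23.0 (D3), 18.0 and 16.6 (D7), 11.2, 14.2 and 10.2 (D21) and 7.69, 9.54 and 8.59 (D49) in control libraries. It was at 6.31, 3.17 and 5.50 FPKM (D1), 11.1 and 10.1 (D3), 5.70 and 4.98 (D7), 2.64 and 2.67 (D21) and 2.29 and 2.59 (D49) in LPS libraries. Again no LPS library reached a control library of its age. Averaged over ages Cdk1 fell by 1.28 ± 0.12 (adjusted p = 1.3e-07) and Ccnb1 by 1.61 ± 0.12 (adjusted p = 2.5e-09). Ccnb1 passed at all 5 ages and Cdk1 at D7, D21 and D49, though without D7 LPS replicate 2 the D7 call of Cdk1 was lost.

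Kif23, a motor of the spindle midzone, was at 2.52 and 1.95 FPKM (D1), 5.70, 5.67 and 3.67 (D3), 4.90 and 3.94 (D7), 3.37, 3.64 and 3.08 (D21) and 2.03, 1.63 and 3.31 (D49) in control libraries. In LPS libraries it was at 0.901, 0.555 and 1.24 FPKM (D1), 1.67 and 1.34 (D3), 0.659 and 0.618 (D7), 0.417 and 0.386 (D21) and 0.358 and 0.550 (D49). The LPS libraries were lower at each age, and those of D21 held the smallest share of the control level. Kif23 fell by 2.25 ± 0.17 over ages (adjusted p = 3.2e-09) and by 3.06 ± 0.39 at D21. Anln, which encodes the actin-binding scaffold anillin of the contractile ring, was at 2.34 and 1.71 FPKM (D1), 4.51, 4.46 and 3.78 (D3), 3.52 and 3.59 (D7), 2.34, 3.73 and 1.95 (D21) and 1.96, 1.48 and 3.01 (D49) in control libraries. LPS libraries held it at 0.797, 0.731 and 0.457 FPKM (D1), 1.46 and 1.11 (D3), 0.650 and 0.623 (D7), 0.521 and 0.543 (D21) and 0.483 and 0.499 (D49). Its LPS libraries lay below its control libraries at all ages, and it fell by 2.05 ± 0.16 (adjusted p = 5.0e-09). Prc1, a bundler of midzone microtubules, was at 4.60 and 3.46 FPKM (D1), 9.38, 5.47 and 9.72 (D3), 7.99 and 7.50 (D7), 4.48, 4.65 and 5.24 (D21) and 3.47, 4.66 and 4.18 (D49) in control libraries. Under LPS the levels were 2.07, 1.73 and 2.15 FPKM (D1), 3.60 and 3.21 (D3), 2.11 and 1.77 (D7), 0.865 and 0.701 (D21) and 0.665 and 0.755 (D49). Prc1 fell by 1.88 ± 0.12 (adjusted p = 3.8e-10), again with no overlap at any age.

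Cenpf, a large protein of the kinetochore, had the largest fall at D21. It was at 0.762 and 0.555 FPKM (D1), 2.56, 1.68 and 2.27 (D3), 2.03 and 2.35 (D7), 1.03, 1.48 and 1.48 (D21) and 0.836, 0.917 and 1.73 (D49) in control libraries. It was at 0.384, 0.142 and 0.415 FPKM (D1), 0.818 and 0.567 (D3), 0.352 and 0.307 (D7), 0.120 and 0.0798 (D21) and 0.138 and 0.227 (D49) in LPS libraries. Every LPS library lay below every control library of its age, with the widest ratio at D21, where the higher LPS library was at 0.12 FPKM and the lowest control library at 1.03. Cenpf fell by 2.37 ± 0.20 over ages (adjusted p = 2.3e-08) and by 3.72 ± 0.49 at D21. The motor gene Kif11, whose product separates the spindle poles, fell by 2.13 ± 0.17 (adjusted p = 1.2e-08), and Hmmr, a spindle assembly factor, by 1.92 ± 0.16 (adjusted p = 2.3e-08). Nusap1, which binds spindle microtubules, was at 8.06 and 5.35 FPKM (D1), 18.3, 10.6 and 23.6 (D3), 14.2 and 15.7 (D7), 9.66, 12.3 and 10.4 (D21) and 6.15, 6.94 and 10.4 (D49) in control libraries. LPS libraries were at 3.42, 3.40 and 2.44 FPKM (D1), 6.92 and 5.36 (D3), 4.04 and 3.46 (D7), 2.11 and 2.75 (D21) and 2.17 and 1.60 (D49). Nusap1 fell by 1.77 ± 0.15 (adjusted p = 2.6e-08), with LPS libraries lower at every age.

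**Figure D2:**
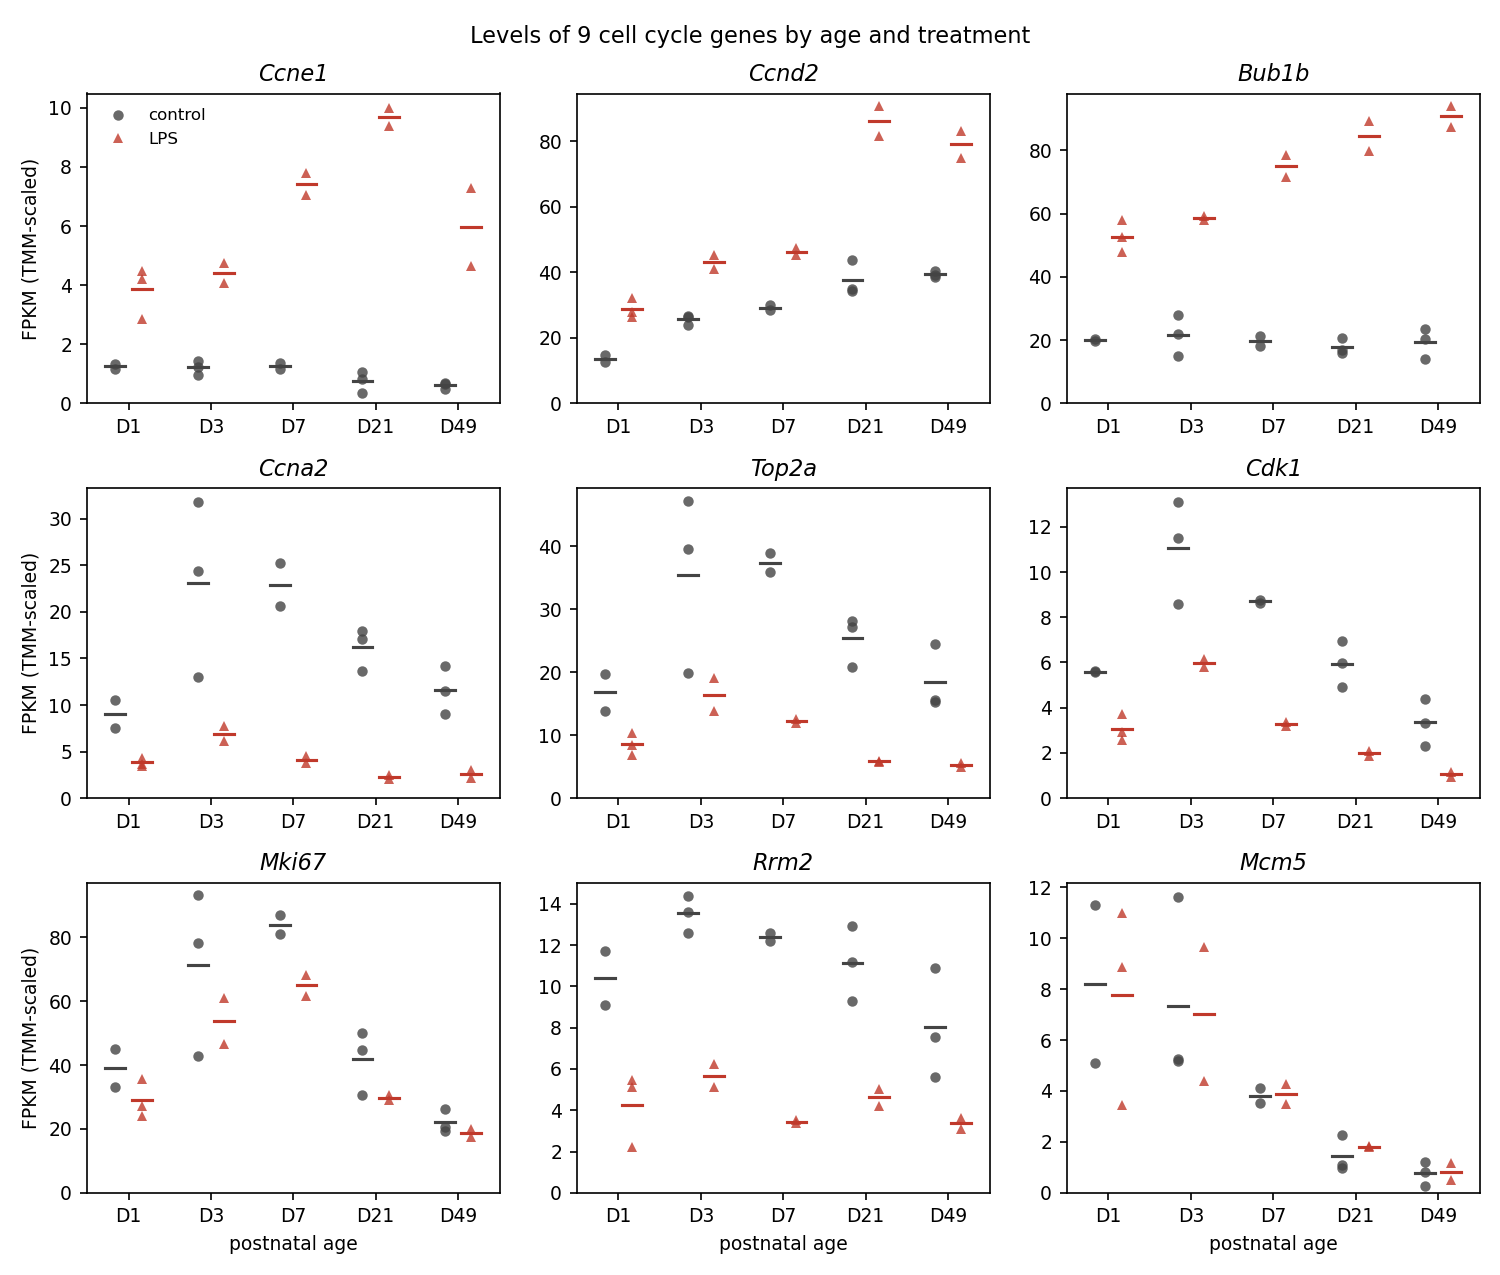
FPKM (scaled by TMM library sizes) of 9 genes in each control library (grey circles) and LPS library (red triangles) by postnatal age, with a bar at each group mean. Ccne1, Ccnd2 and Bub1b are higher with LPS at every age, Ccna2, Top2a, Cdk1 and Rrm2 are lower, and Mki67 and Mcm5 overlap between treatments at 3 or more ages.

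Mki67, the gene of the proliferation marker Ki-67, had the smallest fall among the mitotic genes that passed. Control libraries held it at 45.1 and 33.3 FPKM (D1), 78.4, 42.8 and 93.3 (D3), 81.2 and 86.9 (D7), 30.5, 44.8 and 50.1 (D21) and 20.7, 26.2 and 19.3 (D49). LPS libraries held it at 35.7, 24.1 and 27.1 FPKM (D1), 61.1 and 46.7 (D3), 68.2 and 61.8 (D7), 30.5 and 29.0 (D21) and 17.6 and 19.9 (D49). The treatments overlapped at D1, D3 and D49 and were apart at D7 and D21, as were 63.5% and 50.5% of all tested genes. Mki67 fell by 0.39 ± 0.13 (adjusted p = 0.029), a call lost when the GC deviation was added as a covariate (-0.24 ± 0.10, adjusted p = 0.0548) and in 9 of the 24 fits without 1 library.

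Bub1b was the exception among mitotic genes. It encodes BUBR1, a checkpoint protein that holds back the anaphase-promoting complex until chromosomes are attached. Its control levels were 20.5 and 19.8 FPKM (D1), 22.1, 28.0 and 15.0 (D3), 21.3 and 18.3 (D7), 16.9, 15.9 and 20.8 (D21) and 20.4, 23.4 and 14.1 (D49). Its LPS levels were 52.5, 47.9 and 57.9 FPKM (D1), 59.3 and 58.1 (D3), 78.7 and 71.7 (D7), 89.3 and 79.9 (D21) and 94.0 and 87.5 (D49). All LPS libraries lay above all control libraries, of any age. Bub1b rose by 1.85 ± 0.11 on the log2 scale (adjusted p = 2.5e-10), and it passed at each of the 5 ages, with 1.39 ± 0.25 at D1 and 2.24 ± 0.24 at D21. Bub1, its paralog and a kinase of the same checkpoint, fell by 1.78 ± 0.16 (adjusted p = 6.1e-08). No exon of another annotated gene overlaps Bub1b in GENCODE M21.

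Of the remaining mitotic genes, Cdc20 and Ccnb2 did not pass over ages. Cdc20, the activator of the anaphase-promoting complex, was at 1.46 and 5.25 FPKM (D1), 4.11, 11.1 and 4.58 (D3), 2.90 and 1.66 (D7), 1.44, 0.0357 and 0.302 (D21) and 0.755, 0.0349 and 0 (D49) in control libraries. With LPS it stood at 0.884, 3.07 and 2.59 FPKM (D1), 1.31 and 4.04 (D3), 0.888 and 1.06 (D7), 0.483 and 0.694 (D21) and 0.207 and 0.161 (D49). Within the D1 and D3 groups the libraries with a GC deviation above 1 were the highest, with the top value in D3 control replicate 2, and none was counted in D49 control replicate 3. Its log2 fold change was -0.76 ± 0.51 (adjusted p = 0.28), and with the GC covariate it fell by 1.18 ± 0.23 (adjusted p = 1.1e-04). Ccnb2, for cyclin B2, stood at -0.53 ± 0.33 (adjusted p = 0.24) and with the covariate fell by 0.95 ± 0.13 (adjusted p = 2.9e-07). Plk1, a kinase of mitotic entry and exit, fell by 1.39 ± 0.43 (adjusted p = 0.016) from the levels given with the age comparison. The other falls were those of the kinetochore genes Cenpa (-1.76 ± 0.20) and Cenpe (-1.50 ± 0.16), the Aurora kinase genes Aurkb (-1.47 ± 0.18) and Aurka (-1.15 ± 0.35), the spindle factor Tpx2 (-1.36 ± 0.12), the cytokinesis genes Ect2 (-1.31 ± 0.15) and Kif20a (-1.08 ± 0.24), Birc5, for survivin (-1.13 ± 0.19), and Ube2c, an enzyme of cyclin destruction (-1.08 ± 0.29). Ube2c overlaps exons of the muscle gene Tnnc2 on the other strand over 144 bases, which reached 13.9 FPKM, so its level is uncertain. Exons on the other strand also overlap those of Kif20a (Cdc23, over 977 bases, at up to 3.15 FPKM), Cdc20 (Elovl1, over 53 bases, at up to 63.9 FPKM), Nusap1, Prc1, Plk1, Cdc45, Mcm7, Gins2, Ccnd2, Cdkn1a and E2f8, so their levels are uncertain as well.

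Among S phase genes the 8 falls were those of Rrm1, Rrm2, Brca1, Clspn, Cdc45, Chek1, Mcm4 and Mcm6. Rrm2, the regulated subunit of ribonucleotide reductase, was at 11.7 and 9.09 FPKM (D1), 14.4, 13.6 and 12.6 (D3), 12.6 and 12.2 (D7), 11.2, 12.9 and 9.29 (D21) and 7.56, 5.63 and 10.9 (D49) in control libraries. Its LPS libraries were at 5.14, 2.21 and 5.45 FPKM (D1), 6.24 and 5.11 (D3), 3.36 and 3.54 (D7), 4.21 and 5.03 (D21) and 3.09 and 3.64 (D49). LPS libraries were lower at all ages, and Rrm2 was the 1 S phase gene that passed at each of the 5 ages, though of the 24 fits without 1 library its call was lost in 6 at D3 and in 3 each at D1, D21 and D49. It fell by 1.38 ± 0.15 (adjusted p = 7.3e-07), and Rrm1, the other subunit, by 1.23 ± 0.14 (adjusted p = 7.3e-07). Brca1, of homologous recombination, fell by 1.37 ± 0.15, Clspn, the adaptor of the checkpoint kinase CHK1, by 1.20 ± 0.18, Cdc45, of the replicative helicase, by 0.89 ± 0.17 and Chek1, for CHK1 itself, by 0.78 ± 0.16.

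The MCM genes encode the 6 subunits of the replicative helicase ring. Mcm4 fell by 0.51 ± 0.12 (adjusted p = 0.0028) and Mcm6 by 0.44 ± 0.14 (adjusted p = 0.023). Mcm2 stood at 2.15 and 3.84 FPKM (D1), 1.99, 4.84 and 1.90 (D3), 1.76 and 1.21 (D7), 1.14, 0.518 and 0.460 (D21) and 0.676, 0.309 and 0.282 (D49) in control libraries. Its levels with LPS were 1.21, 2.61 and 2.33 FPKM (D1), 1.11 and 2.06 (D3), 0.888 and 1.13 (D7), 0.412 and 0.522 (D21) and 0.389 and 0.295 (D49). The treatments were apart at D7 alone, where 63.5% of all tested genes were apart. The change of -0.58 ± 0.24 did not pass (adjusted p = 0.072), while with the GC covariate Mcm2 fell by 0.86 ± 0.12 (adjusted p = 8.7e-07). Mcm5 stood at 5.11 and 11.3 FPKM (D1), 5.19, 11.6 and 5.24 (D3), 4.10 and 3.52 (D7), 2.26, 0.985 and 1.10 (D21) and 1.22, 0.278 and 0.813 (D49) in control libraries. LPS libraries held it at 3.45, 11.0 and 8.88 FPKM (D1), 4.38 and 9.66 (D3), 3.48 and 4.27 (D7), 1.79 and 1.83 (D21) and 1.16 and 0.514 (D49). The treatments overlapped at every age, and the change of 0.06 ± 0.27 did not pass (adjusted p = 0.92), nor did -0.29 ± 0.15 with the covariate (adjusted p = 0.12). Mcm3 stood at 0.03 ± 0.34 (adjusted p = 0.99). Mcm7 stood at -0.20 ± 0.29 (adjusted p = 0.66), and with the covariate it fell by 0.57 ± 0.12 (adjusted p = 3.5e-04).

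Pcna, the sliding clamp of the polymerases, had the highest level of all 52 genes. It was at 111 and 74.8 FPKM (D1), 136, 84.6 and 148 (D3), 165 and 168 (D7), 208, 237 and 235 (D21) and 182, 187 and 481 (D49) in control libraries. It was at 114, 83.4 and 80.6 FPKM (D1), 134 and 101 (D3), 180 and 160 (D7), 190 and 185 (D21) and 197 and 234 (D49) in LPS libraries. Treatments overlapped except at D21, where 50.5% of all tested genes were apart. D49 control replicate 3, at 481 FPKM, stood far above its group. The change of -0.14 ± 0.16 did not pass (adjusted p = 0.54), and a processed copy, Pcna-ps2, reached 8.12 FPKM, so some reads may be shared. The licensing genes parted: Cdt1, which loads the helicase, rose by 0.72 ± 0.14 (adjusted p = 4.6e-04), and its partner Cdc6 did not pass (-0.02 ± 0.20, adjusted p = 0.99). Cdc6 was low, at 0.800 and 1.00 FPKM (D1), 0.859, 1.51 and 0.753 (D3), 0.672 and 0.378 (D7), 0.406, 0.459 and 0.264 (D21) and 0.459, 0.212 and 0.303 (D49) in control libraries. Under LPS the levels were 0.700, 0.858 and 0.914 FPKM (D1), 0.533 and 0.658 (D3), 0.503 and 1.13 (D7), 0.376 and 0.297 (D21) and 0.505 and 0.323 (D49), with overlap at all ages but D3. Tyms, of thymidylate synthesis, stood at 0.17 ± 0.16 (adjusted p = 0.44), Gins2, of the replicative helicase, at 0.11 ± 0.49 (adjusted p = 0.93) and Uhrf1, which guides DNA methylation after replication, at -0.23 ± 0.17 (adjusted p = 0.33).

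Among G1/S genes, 2 cyclins rose. Ccne1, for cyclin E1, the CDK2 partner that starts S phase, was at 1.32 and 1.18 FPKM (D1), 0.954, 1.45 and 1.24 (D3), 1.18 and 1.35 (D7), 0.820, 0.351 and 1.06 (D21) and 0.687, 0.490 and 0.652 (D49) in control libraries. With LPS it stood at 4.22, 4.49 and 2.87 FPKM (D1), 4.06 and 4.74 (D3), 7.05 and 7.80 (D7), 10.0 and 9.40 (D21) and 7.30 and 4.65 (D49). Every LPS library lay above every control library, of any age. Ccne1 rose by 2.60 ± 0.17 (adjusted p = 5.9e-10), from 1.62 ± 0.37 at D1 to 3.70 ± 0.37 at D21, and the D1 call was lost without either D1 control library. Its paralog Ccne2, for cyclin E2, was at 2.85 and 2.06 FPKM (D1), 3.97, 2.31 and 4.27 (D3), 4.48 and 4.96 (D7), 3.91, 4.69 and 6.07 (D21) and 2.72, 4.48 and 3.09 (D49) in control libraries. LPS libraries were at 1.55, 1.03 and 1.60 FPKM (D1), 2.05 and 1.16 (D3), 2.14 and 1.75 (D7), 2.81 and 2.89 (D21) and 2.93 and 3.40 (D49). Ccne2 fell by 0.82 ± 0.16 (adjusted p = 3.5e-04), with groups apart at all ages but D49; its exons overlap those of Ints8 on the other strand over 474 bases.

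Ccnd2, for cyclin D2, which links growth signals to CDK4 and CDK6, was at 14.7 and 12.6 FPKM (D1), 26.4, 26.8 and 24.0 (D3), 30.0 and 28.5 (D7), 34.2, 34.8 and 43.7 (D21) and 39.2, 38.6 and 40.4 (D49) in control libraries. With LPS the gene was at 32.2, 27.8 and 26.5 FPKM (D1), 45.4 and 41.0 (D3), 47.4 and 45.3 (D7), 90.7 and 81.7 (D21) and 83.3 and 75.0 (D49). LPS libraries were higher at all ages. Ccnd2 rose by 0.94 ± 0.08 (adjusted p = 1.4e-08) and passed at all 5 ages, the D7 call (0.66 ± 0.19, adjusted p = 0.027) being lost in 8 of 24 fits without 1 library. The other D-type cyclins were low, Ccnd1 at 0.0554 to 0.495 FPKM and Ccnd3 at 0 to 0.998 FPKM over the 24 libraries, and were not tested.

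Of the 3 CDK inhibitors among the 52 tested genes, 1 fell with LPS. Cdkn2c, for p18INK4c, an inhibitor of CDK4 and CDK6, was at 1.23 and 1.27 FPKM (D1), 2.78, 3.19 and 1.98 (D3), 2.23 and 1.68 (D7), 1.41, 1.37 and 1.10 (D21) and 1.09, 0.607 and 0.815 (D49) in control libraries. In LPS libraries the gene was at 0.499, 0.890 and 0.781 FPKM (D1), 0.858 and 0.890 (D3), 0.490 and 0.473 (D7), 0.277 and 0.241 (D21) and 0.288 and 0.292 (D49). LPS libraries were lower at all ages, and Cdkn2c fell by 1.65 ± 0.17 (adjusted p = 2.1e-07). Cdkn1a, for p21, a target of p53, was at 21.0 and 33.0 FPKM (D1), 17.7, 38.1 and 16.2 (D3), 17.1 and 19.5 (D7), 24.0, 12.5 and 13.3 (D21) and 22.5, 13.3 and 10.1 (D49) in control libraries. Its levels with LPS were 22.2, 33.3 and 35.7 FPKM (D1), 20.5 and 33.3 (D3), 20.3 and 25.5 (D7), 24.2 and 29.8 (D21) and 18.7 and 14.0 (D49). The treatments overlapped at D1, D3 and D49, and the change of 0.29 ± 0.19 did not pass (adjusted p = 0.25). Cdkn1b, for p27, was at 5.91 and 3.90 FPKM (D1), 7.73, 6.42 and 7.11 (D3), 8.45 and 8.38 (D7), 10.6, 15.1 and 11.2 (D21) and 10.7, 9.90 and 27.7 (D49) in control libraries. LPS libraries held it at 5.34, 4.09 and 3.09 FPKM (D1), 7.55 and 6.16 (D3), 11.0 and 9.15 (D7), 22.3 and 21.3 (D21) and 19.2 and 23.2 (D49). LPS libraries lay above control libraries at D7 and D21, as 63.5% and 50.5% of all tested genes were apart, and overlapped at the other ages. Cdkn1b passed at neither D7 nor D21. It stood at 0.24 ± 0.16 (adjusted p = 0.28) over ages and at 0.43 ± 0.12 (adjusted p = 0.0042) with the GC covariate.

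The E2F factors were low. E2f1, an activator of S phase genes, was at 1.18 and 5.52 FPKM (D1), 1.38, 4.91 and 2.38 (D3), 1.13 and 0.868 (D7), 0.965, 0.296 and 0.0199 (D21) and 0.844, 0.0207 and 0 (D49) in control libraries. Its LPS libraries stood at 0.818, 6.22 and 3.57 FPKM (D1), 0.853 and 3.34 (D3), 0.580 and 0.774 (D7), 0.522 and 0.534 (D21) and 0.510 and 0.0191 (D49). The highest values stood in the libraries of D1 and D3 with a GC deviation above 1, in both treatments, and the change of -0.17 ± 0.60 did not pass (adjusted p = 0.89), while with the covariate E2f1 fell by 0.77 ± 0.26 (adjusted p = 0.019). E2f8, a repressor of the same targets, was at 1.11 and 0.855 FPKM (D1), 1.71, 1.90 and 1.22 (D3), 1.62 and 1.11 (D7), 0.844, 0.600 and 0.738 (D21) and 0.547, 0.587 and 0.277 (D49) in control libraries. Under LPS the levels were 0.531, 0.540 and 0.878 FPKM (D1), 0.759 and 0.808 (D3), 0.473 and 0.860 (D7), 0.536 and 0.500 (D21) and 0.166 and 0.177 (D49). It was lower with LPS at all ages but D1, and it fell by 0.92 ± 0.18 (adjusted p = 3.8e-04). E2f7, the other such repressor, was at 0.0921 to 0.762 FPKM and was not tested.

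**Figure D3:**
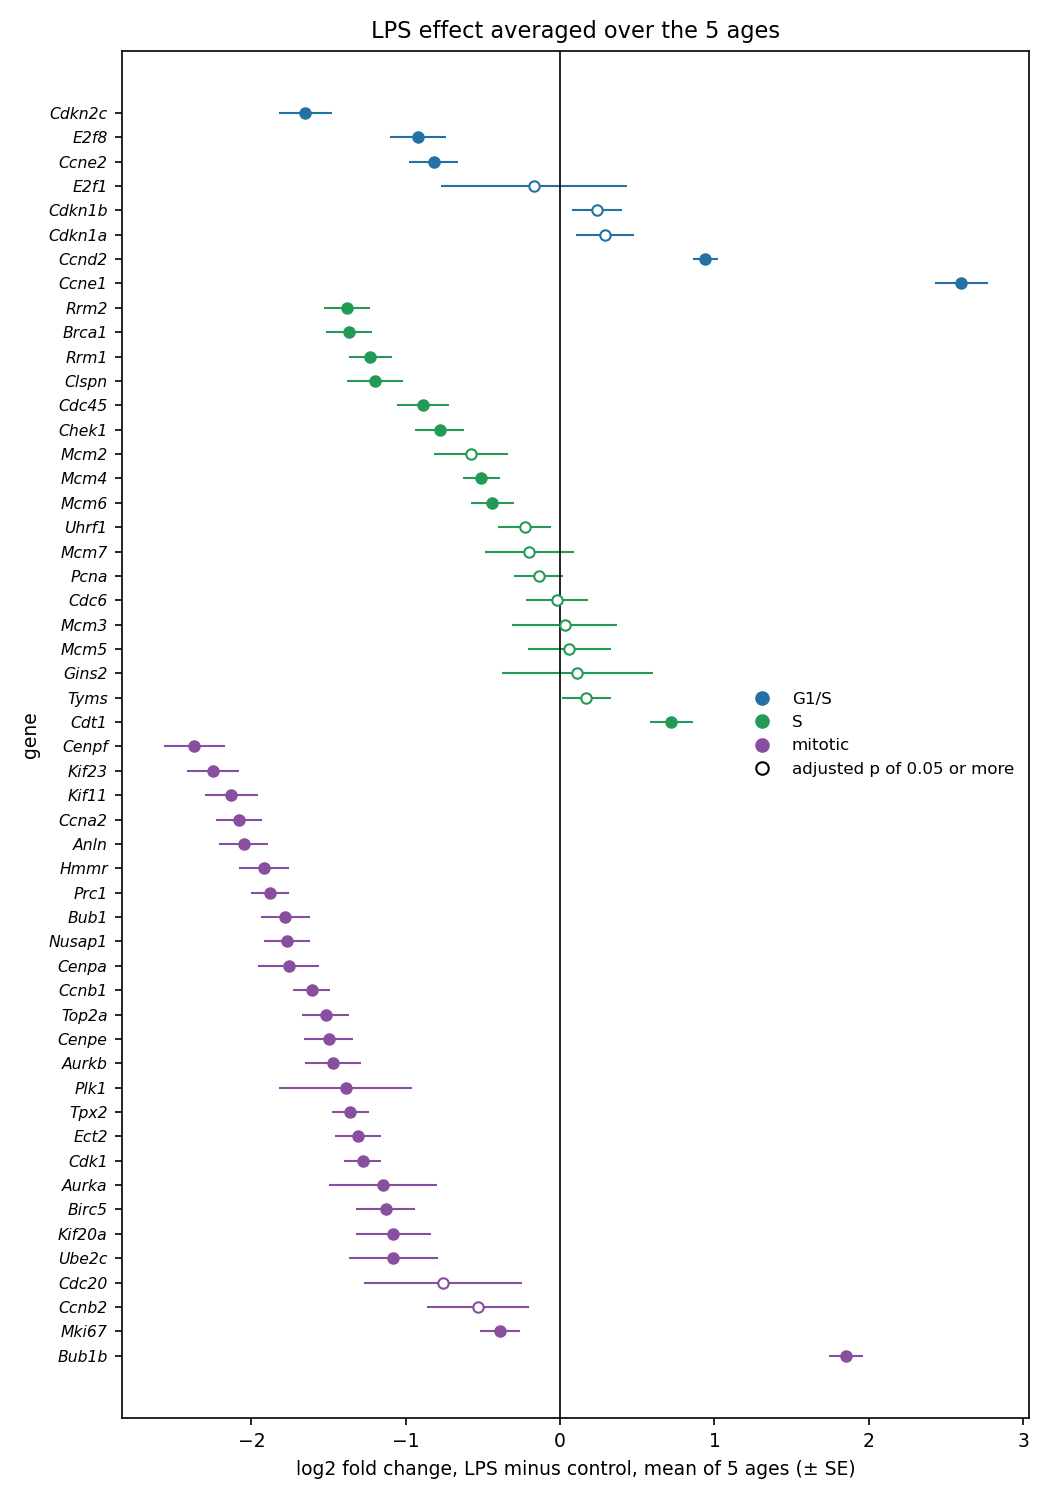
Log2 fold change with LPS averaged over the 5 ages (points, with bars of 1 SE) for the 52 tested genes, coloured by role; open points did not pass at an adjusted p under 0.05. Mitotic genes lie between -2.37 and -0.39 apart from Bub1b at 1.85, and Ccne1 has the largest rise at 2.60.

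At the single ages, 9 genes fell and 3 rose at D1, where 1.93% of all tested genes fell, 3.74% rose and 5.67% did either. At D3, 14 fell and 3 rose (2.57%, 4.43% and 7.01% of all tested genes). At D7, 24 fell and 3 rose (4.47%, 5.15% and 9.61%). At D21, 24 fell and 3 rose (6.74%, 6.77% and 13.5%). At D49, 22 fell and 4 rose (4.98%, 5.24% and 10.2%). The genes that rose were Ccne1, Bub1b and Ccnd2 at every age, with Cdt1 added at D49 (1.42 ± 0.31, adjusted p = 0.0041, and 0.84 with an adjusted p of 0.0533 in the 14 libraries with a GC deviation within 1). The genes that fell at all 5 ages were Anln, Bub1, Ccna2, Ccnb1, Kif11, Kif23, Nusap1, Prc1 and Rrm2. In every member called at an age the LPS libraries lay apart from the control libraries, as they did in 99.8 to 100% of all genes called, so this is not particular to the members. The median of mitotic genes was -1.0 at D1, -1.24 at D3, -1.70 at D7, -2.09 at D21 and -1.74 at D49.

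The 6 largest falls at D1 were those of Anln (-1.61 ± 0.32), Kif11, Kif23, Rrm2, Bub1 and Ccna2. At D3 they were those of Ccna2 and Kif23 (both -1.73), Anln, Cenpf, Cdkn2c and Hmmr. At D7 they were those of Kif23 (-2.79 ± 0.40), Cenpf, Ccna2, Anln, Kif11 and Hmmr. At D21 they were those of Cenpf (-3.72 ± 0.49), Kif23, Ccna2, Hmmr, Kif11 and Prc1, and at D49 those of Cenpf (-2.66 ± 0.46), Prc1, Cenpa, Kif11, Kif23 and Ccna2. Ccna2 and Kif23 were among the 6 at every age. Counts at D1 and D3 changed with single libraries. For fits that leave out 1 library, here and below, no share of all tested genes was computed. Their counts therefore cannot be set against one, and a loss of calls may not be particular to the members. At D1, 2 genes passed without D1 control replicate 1, 7 without D1 control replicate 2 or without D21 LPS replicate 2, and 4 without D1 LPS replicate 2. At D3, 3 passed without D3 LPS replicate 2, 8 without D3 LPS replicate 1 and 11 without D3 control replicate 1 or D21 LPS replicate 2, and 17 passed at D7 without D7 LPS replicate 2 and at D49 without D49 LPS replicate 1. Without D1 control replicate 1 all 9 falls called at D1 were lost, and so was the rise of Ccne1. Without D3 LPS replicate 2 all 14 falls called at D3 were lost and the 3 rises passed. With the GC covariate the counts were 28 at D1 (12.2% of all tested genes) and 35 at D3 (14.8%).

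Whether the LPS effect differed between late ages (D21 and D49) and early ages (D1, D3 and D7) was tested as the difference of the mean effects. Of the 52 genes 1 passed, a fall (0.382% of all tested genes fell, 0.0849% rose and 0.467% did either). Prc1, with the levels given above, fell more with LPS at the late ages, by a difference of -1.14 ± 0.23 (adjusted p = 0.03). That call was lost in 13 of 24 fits without 1 library, and it was farthest from passing without D21 LPS replicate 2 or D49 LPS replicate 1 (adjusted p = 0.18 in both). The other libraries whose removal ended it were D1 control 2, D1 LPS 1, both D3 LPS, both D7 control, D7 LPS 1, D21 control 3, D21 LPS 1, D49 control 3 and D49 LPS 2, and 2 genes passed without D21 control 2 or D49 control 1. The call was also lost in the 14 libraries with a GC deviation within 1 (adjusted p = 0.0501). Cenpf stood at -1.37 ± 0.39 (adjusted p = 0.21) and passed with the GC covariate (-1.11 ± 0.28, adjusted p = 0.029). The rise of Ccne1 was larger at late ages by 1.49 ± 0.33, which did not pass (adjusted p = 0.0552) and passed with the covariate (1.42 ± 0.30, adjusted p = 0.0066).

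**Figure D4:**
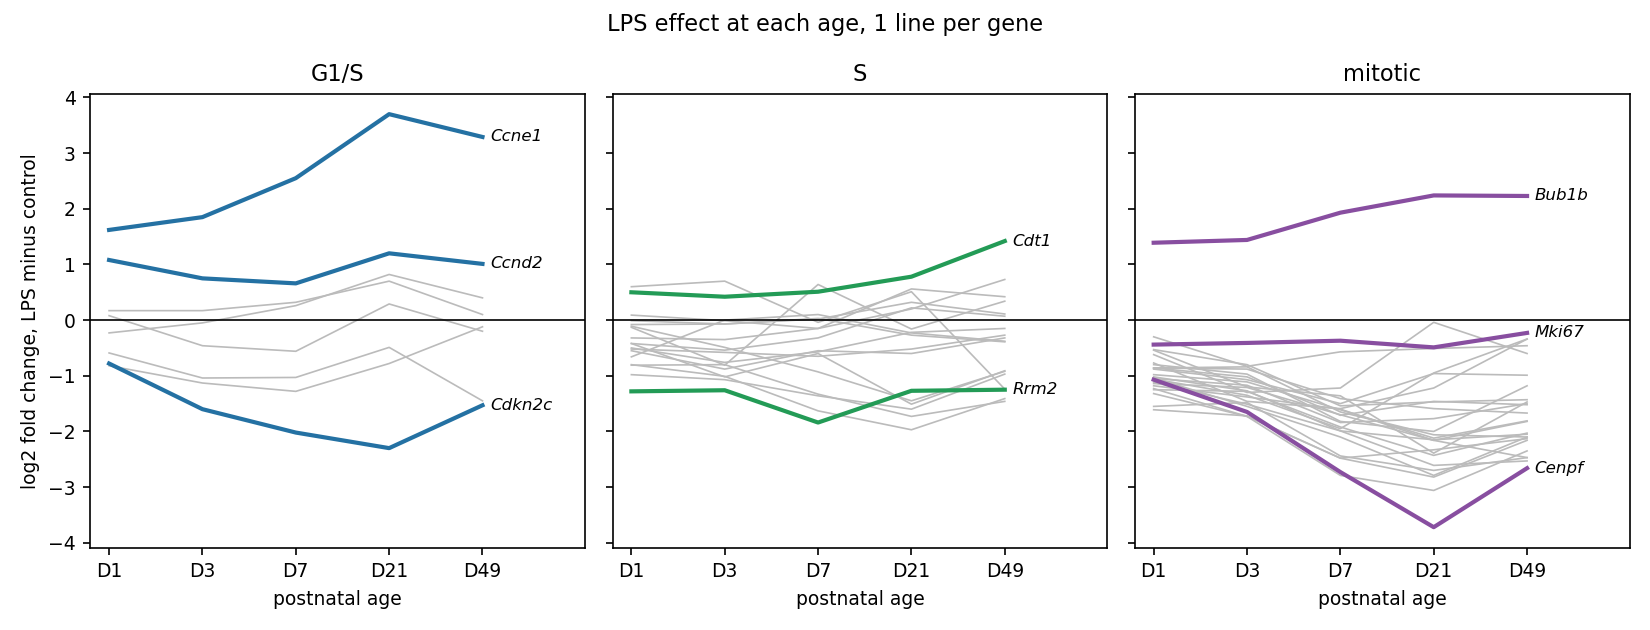
Log2 fold change with LPS at each age for the tested G1/S, S phase and mitotic genes (1 line per gene, with 8 genes named and coloured). The lines of Ccne1, Ccnd2 and Bub1b are above 0 at all ages, and Cenpf is the lowest mitotic line at D21 with -3.72.

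The next comparisons follow control cells with age; they share the control libraries used above. The summed level of the mitotic genes, to which Mki67 adds most, was 181 to 195 FPKM in D1 control libraries, 327 to 383 at D3, 312 to 318 at D7, 175 to 215 at D21 and 132 to 149 at D49. The sums of D3 and D7 lay above those of the other ages without overlap. Not each gene followed the sum: the group means of Aurka, Aurkb, Bub1b, Ccnb2, Cdc20 and Plk1 were lower at D7 than at D1. From D1 to D3, 5 genes rose and 0 fell (0.603% of all tested genes rose, 1.07% fell and 1.67% did either), with 0 falls also at an unadjusted p under 0.05 in edgeR and 0 in DESeq2. The rises were those of Nusap1 (1.39 ± 0.33), Ccna2 (1.36 ± 0.32), Ccnb1 (1.16 ± 0.25), Prc1 (1.02 ± 0.25) and Ccnd2 (0.92 ± 0.17), and all 26 mitotic genes had positive log2 fold changes. None passed without D1 control replicate 1, D1 control replicate 2 or D21 LPS replicate 2, and 8 passed without D3 control replicate 2. Further, 1 passed without D3 control replicate 1, D49 LPS replicate 1 or D49 LPS replicate 2, and 2 passed without D3 control replicate 3, D21 LPS replicate 1 or either D7 control library. The count was 3 without D1 LPS replicate 2 or either D7 LPS library, and 16 with the GC covariate (4.06% of all tested genes). It was 0 without the FPKM filter, 2 with RLE scaling and 3 with the replicate block. Summed markers of other cells were lower at D3 than at D1 in control libraries without overlap. Lung epithelial markers summed to 65.2 to 71.6 FPKM at D1 and 16.4 to 23.0 at D3. Erythroid markers summed to 25.6 to 27.1 and 2.70 to 5.79, and neutrophil markers to 139 to 231 and 82.8 to 123. Gene by gene, 1 of the 7 tested neutrophil markers rose and 1 fell, and 6 had negative log2 fold changes. The part of these markers in this step was not tested.

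The steps from D3 to D7, D7 to D21 and D21 to D49 gave 0 members past the threshold in edgeR. Of all tested genes 0.0764% rose and 0.0849% fell from D3 to D7 (0.161% in all), 0.722% and 0.374% from D7 to D21 (1.1%), and 0.773% and 0.484% from D21 to D49 (1.26%). At an unadjusted p under 0.05 edgeR gave 2, 14 and 13 members, and DESeq2 gave 0, 4 and 3 past the adjusted threshold. No share of all tested genes was computed for these counts, so they cannot be set against one. From D7 to D21 the log2 fold change was negative in all 26 mitotic genes, with a median of -0.60. With the GC covariate 9 mitotic genes fell in that step, where 1.41% of all tested genes fell. Single libraries decided small counts here: from D7 to D21, 2 genes passed without D49 control replicate 3 and 1 without D3 control replicate 2 or D49 control replicate 1, and from D21 to D49, 2 passed without D3 control replicate 2 or D49 control replicate 1 and 1 without D49 control replicate 2.

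Late control cells (D21 and D49) were set against early ones (D1, D3 and D7). Of the 52 genes 30 fell and 3 rose (25.8% of all tested genes fell, 24.6% rose and 50.4% did either), and 16 of the 33 had groups that did not overlap, as had 34.1% of all genes called. By role, 15 of 26 mitotic, 11 of 18 S phase and 4 of 8 G1/S genes fell, and Cdkn1b, Pcna and Ccnd2 rose. These sizes ran with GC content: over the 52 genes the rank correlation of GC content with the log2 fold change was -0.69. With the GC covariate it was -0.04. Genes share libraries and are not independent points. The covariate was computed from these same counts, so a weaker GC trend with it was in part built in. It also moved with age, so it may take out differences with age as well. With the covariate 32 genes fell and 1 rose, the falls being 21 mitotic, 10 S phase and 1 G1/S gene, where 7.37% of all tested genes fell, 8.45% rose and 15.8% did either. In the 14 libraries with a GC deviation within 1, 36 fell and 3 rose, beside 9.65%, 10.6% and 20.2% of all tested genes. The mitochondrial share was higher late than early, as given above, and its part was not tested. Values with the covariate are therefore given beside the others.

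Among the 6 largest falls, Cdc20 stood at -3.16 ± 0.72 (-1.49 ± 0.36 with the covariate), Mcm3 at -2.53 ± 0.49 (-1.16 ± 0.28), Mcm5 at -2.53 ± 0.39 (-1.38 ± 0.26) and Kif20a, a motor of cytokinesis, at -2.45 ± 0.33 (-1.67 ± 0.24), and all 4 passed both ways. E2f1 stood at -2.56 ± 0.85, a call lost without D1 control replicate 2 and with the covariate (-0.59 ± 0.42, adjusted p = 0.38). Plk1 was at 2.42 and 5.89 FPKM (D1), 4.26, 9.68 and 5.01 (D3), 3.01 and 2.98 (D7), 1.44, 0.333 and 0.856 (D21) and 1.12, 0.237 and 0.0343 (D49) in control libraries. In LPS libraries Plk1 was at 1.03, 3.54 and 4.00 FPKM (D1), 1.92 and 3.59 (D3), 0.728 and 1.60 (D7), 0.290 and 0.0295 (D21) and 0.234 and 0.110 (D49). Its D21 and D49 control libraries were all below its early ones, and it fell by 2.72 ± 0.58 (adjusted p = 0.0014), or by 1.32 ± 0.32 with the covariate (adjusted p = 0.0046). Mcm2 fell by 2.10 ± 0.33 (adjusted p = 1.5e-04), or by 1.05 ± 0.21 with the covariate.

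Other sizes changed less between the fits. Mki67 fell by 1.02 ± 0.18 (adjusted p = 3.5e-04) and by 1.45 ± 0.17 with the covariate, Tyms by 1.28 ± 0.22 and 1.30 ± 0.25, and Mcm6 by 1.67 ± 0.20 and 1.39 ± 0.22. Ccnd2 rose by 0.82 ± 0.10 (adjusted p = 1.3e-05) and by 0.74 ± 0.14. Some mitotic genes did not pass without the covariate and passed with it: Top2a stood at -0.38 ± 0.19 and then fell by 0.93 ± 0.16, Ccna2 at -0.29 ± 0.19 and then fell by 0.71 ± 0.19, and Kif11 at -0.19 ± 0.22 and then fell by 0.80 ± 0.20. The opposite held for Cdkn1b (1.09 ± 0.22, then 0.48 ± 0.20, adjusted p = 0.11), Pcna (1.03 ± 0.21, then 0.39 ± 0.17, adjusted p = 0.13), Cdc6 (-1.17 ± 0.28, then -0.63 ± 0.32, adjusted p = 0.19), Cdkn2c (-0.84 ± 0.21, then -0.48 ± 0.28, adjusted p = 0.26) and Ccne1 (-0.88 ± 0.23, then -0.71 ± 0.27, adjusted p = 0.078). Cdkn1a passed in neither fit and changed sign, from -0.52 ± 0.25 to 0.28 ± 0.17. Beside these, neutrophil, monocyte and erythroid markers were also lower by their medians in late control libraries. The medians were -1.98 over 7, -2.33 over 5 and -2.97 over 4 tested markers. Of the 7 neutrophil markers 5 fell and 1 rose. All 6 gland genes rose, with a median of 10.01. The part of these markers in the age difference was not tested.

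**Figure D5:**
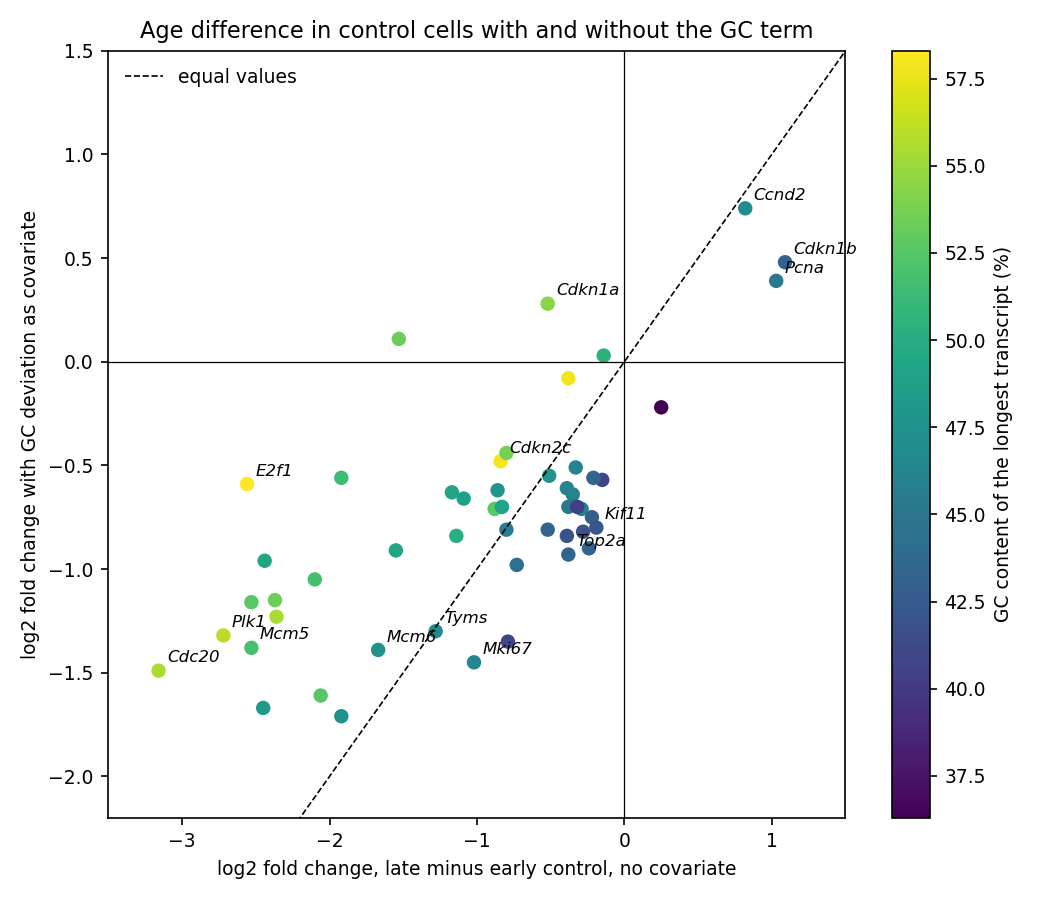
Log2 fold change from early to late control libraries for the 52 tested genes without a covariate (x axis) and with the GC deviation of the library as covariate (y axis), coloured by the GC content of the longest transcript, with a dashed line of equal values. GC-rich genes such as Cdc20 (-3.16 and -1.49) and E2f1 (-2.56 and -0.59) lie left of the line, and GC-poor genes such as Kif11 (-0.19 and -0.80) lie right of it.

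In LPS libraries the late ages were lower in 41 genes and higher in 5 (9.18% of all tested genes fell, 12.0% rose and 21.1% did either), with 24 of 26 mitotic and 15 of 18 S phase genes falling. In 33 of these 46 the late and early libraries did not overlap, as in 75.0% of all genes called. Markers of other cells differed in late LPS libraries too. Falls were seen in 6 of 6 gland genes (median -6.13), 2 of 4 erythroid (-3.97) and 2 of 2 mesenchymal and endothelial markers (-2.94). Of 7 lung epithelial markers 3 fell and 1 rose (-0.81), and of 7 neutrophil markers 1 fell and 1 rose (-0.6). Of 5 monocyte markers 1 fell and 0 rose (-0.97). The part of these markers was not tested. The 6 largest falls were those of Plk1 (-3.61 ± 0.76, adjusted p = 0.0025), Cdc20 (-2.43 ± 0.85), Aurka (-2.42 ± 0.59), Ccnb2 (-2.36 ± 0.55), Aurkb (-2.34 ± 0.30) and Gins2 (-2.32 ± 0.80), Aurka and Aurkb being the Aurora kinases of spindle assembly and chromosome segregation and Gins2 a helicase subunit. With the covariate Plk1 stood at -2.44 ± 0.41, Aurka at -1.32 ± 0.32, Ccnb2 at -1.18 ± 0.22 and Aurkb at -2.05 ± 0.27, all passing, while Cdc20 (-0.90 ± 0.42, adjusted p = 0.15) and Gins2 (-1.17 ± 0.51, adjusted p = 0.12) did not pass. The rises were those of Cdkn1b (1.70 ± 0.24, adjusted p = 7.2e-05), Ccnd2 (1.10 ± 0.11), Ccne2 (0.88 ± 0.23), Pcna (0.71 ± 0.24) and Bub1b (0.51 ± 0.17). With the covariate Ccne2 (0.58 ± 0.21, adjusted p = 0.0504) and Pcna (0.32 ± 0.16, adjusted p = 0.20) did not pass. The calls of Bub1b and Pcna were lost in 9 of the 24 fits without 1 library, that of Cdc20 in 14 and that of Gins2 in 13. Without D21 LPS replicate 2, and likewise without D49 LPS replicate 2, 29 genes passed.

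The members were set beside 4 further lists of cell cycle and p53 genes. With LPS averaged over ages, where 18.8% of all tested genes fell and 14.9% rose (median 0.01), 43 of 56 other tested mitotic genes fell and 1 rose (median -1.06), the largest falls being those of Aspm (-2.34 ± 0.19), Depdc1a (-2.14 ± 0.21) and Knl1 (-2.08 ± 0.20), with a rise of Trip13 (0.52 ± 0.14). Of 42 other replication genes 22 fell and 2 rose (median -0.48); Pole2 fell by 1.31 ± 0.18, Pola1, of DNA polymerase alpha, by 1.29 ± 0.17 and Dnmt1, the maintenance methyltransferase, by 1.27 ± 0.24, and Pola2 and Chaf1b rose by 0.83 ± 0.28 and 0.55 ± 0.16. The call of Pola2 was lost in 4 of 24 fits without 1 library, and that of Chaf1b in the 14 libraries with a GC deviation within 1 (0.34, adjusted p = 0.13). Of 31 regulators 14 fell and 2 rose: Cdc25b, a phosphatase that activates CDK1, fell by 2.24 ± 0.23, E2f2 by 2.05 ± 0.27 and Cdkn2d by 1.56 ± 0.28, while E2f5 rose by 1.70 ± 0.15 and Cdkn2b by 0.62 ± 0.20 (lost in 3 of 24 such fits). Of 17 p53 targets 9 fell and 3 rose: Plk2 rose by 2.30 ± 0.10, Mdm2, which degrades p53, by 0.43 ± 0.09 and Fas by 0.36 ± 0.13 (a call lost in 14 of 24 fits without 1 library), and Trp53inp1, Phlda3 and Pmaip1 fell by 1.59 ± 0.17, 1.37 ± 0.37 and 0.78 ± 0.15.

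With age in control cells, where 25.8% of all tested genes fell and 24.6% rose, 30 of the 56 other mitotic genes fell and 1 rose, and 30 of the 42 other replication genes fell and 2 rose. With the covariate the falls were 34 and 25, beside 7.37% of all tested genes, and no gene of either list rose. Among replication genes Chaf1a fell by 2.63 ± 0.63 (1.08 with the covariate), Lig1, the ligase of Okazaki fragments, by 2.53 ± 0.28 (1.82) and Cdca7 by 2.49 ± 0.25 (2.36). Among mitotic genes the condensin gene Ncapd2 fell by 2.76 ± 0.65 (0.83) and Incenp, of the chromosomal passenger complex, by 2.51 ± 0.44 (1.05), while Espl1, for separase, fell by 2.34 ± 0.80 and did not pass with the covariate (adjusted p = 0.59). The rises of Orc4 (0.91 ± 0.21), Orc3 (0.55 ± 0.19) and Ncapg2 (0.62 ± 0.19) did not pass with the covariate either.

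Of the 31 regulators 8 rose and 11 fell with age, beside 24.6% and 25.8% of all tested genes, and 3 rose and 6 fell with the covariate, beside 8.45% and 7.37%. Cdkn2b, for p15INK4b, an inhibitor of CDK4 and CDK6, rose by 3.20 ± 0.28 (adjusted p = 2.1e-07, and 3.15 with the covariate), Cdk6 by 1.47 ± 0.19 (1.08) and Rb1, the retinoblastoma gene, by 1.09 ± 0.20 (0.53). Foxm1, the activator of mitotic genes, fell by 2.26 ± 0.31 (adjusted p = 3.4e-05), or by 1.48 with the covariate. Cdk4 and E2f4 fell by 2.05 ± 0.47 and 1.73 ± 0.42 and did not pass with the covariate (adjusted p = 0.13 and 0.45). Of the 17 p53 targets 5 rose and 3 fell, which is near the shares of all tested genes. The largest rises were those of Trp53inp1 (1.11 ± 0.22), Ccng1 (0.65 ± 0.20) and Pmaip1 (0.56 ± 0.20), and Sesn2 fell by 1.64 ± 0.50 and Bax, an effector of apoptosis, by 1.15 ± 0.45; the calls of Bax, Pmaip1, Ccng1 and Sesn2 were lost in 7, 4, 2 and 1 of the 24 fits without 1 library, and none of the 5 passed with the covariate, where Bax stood at 0.38 (adjusted p = 0.30). With the covariate 1 target fell, which was Gadd45a, a growth arrest gene (-1.01 ± 0.20 without the covariate and -1.46 with it).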

How the data were processed

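Poly(A) RNA libraries of mouse alveolar macrophages were sequenced in 24 samples of 10 groups. The authors deposited a table of raw gene counts with the exonic length of each gene. The submitters' processing notes name STAR, DESeq2 and, as build, GRCm39. Which tool counted the reads, with which annotation and strand setting, is not given in the sources used here. Spearman correlations between replicates of a group were 0.922 to 0.992, and no pair was alike within sampling noise.

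Symbols were found for 52073 of 56691 gene IDs. Counts were tested with edgeR 4.0.16 in R 4.3.3 (TMM scaling, quasi-likelihood, 10 group means over 24 libraries) for genes at 1 FPKM or more in 2 or more libraries. In all, 13 comparisons were made, each adjusted by Benjamini-Hochberg over 11774 genes. Values after ± are standard errors, derived from the test as the absolute log2 fold change over the square root of its F statistic. Printed FPKM use the deposited lengths and TMM-scaled totals, and the filter uses plain totals. The GC deviation compares the 10% of genes richest in GC with the 10% poorest, by the longest GENCODE M21 transcript, found for 97.2% of tested genes.

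Alternatives were DESeq2 1.42.0, RLE scaling, no FPKM filter, the GC deviation as covariate, the 14 libraries with a deviation within 1, a replicate block, that block with the covariate (chosen after seeing the data), and leaving out each library. Values per library are given for a set of core genes and for the largest rise and fall in each comparison, and Bub1b was added after its values were seen. By rule the text names up to 6 rises and 6 falls per comparison, and 3 of each from further lists in the averaged LPS and the control age comparison. The members and lists were chosen with earlier results of these data known.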

Additional observations from a re-analysis of the deposited data

Results flagged for a closer look

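Prc1, which encodes a bundler of microtubules in the spindle midzone, fell more with LPS at D21 and D49 than at D1, D3 and D7. The difference of the log2 fold changes between late and early ages was -1.14 (edgeR quasi-likelihood test of the interaction, adjusted p = 0.03), and it is listed here because the effect of the same treatment differed between ages. The call was lost in 13 of the 24 fits that left out 1 library and in the 14 libraries with a GC deviation within 1 (adjusted p = 0.0501).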

How the results depend on the processing

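Among the genes named, 1 called value changed direction: the fall of Bax with age in control cells stood at 0.38 with the GC covariate, 0.12 in the 14 libraries within a GC deviation of 1 and 0.35 with the block and the covariate. The deviations of samples that share a replicate number correlated with 0.07 to 0.83 over 10 pairs, highest at D1 and D3 (0.61 to 0.83). They were 0.56 and 0.29 at D49. At D7 each group holds 2 libraries, so its 2 pairs (0.1 in both) mirror each other and are not separate values. As not all pairs were above 0.1, the pairing was not used in the main fit at any age, also where the pairs were above it. The GC deviation went with the number, and a batch that the labels do not record cannot be told apart from it. With the replicate block 3 genes passed from D1 to D3. With the block and the GC covariate 26 genes passed for LPS at D1, 36 at D3, 16 from D1 to D3, 10 from D7 to D21, 7 from D21 to D49 and 2 for the late minus early LPS response.

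With the GC covariate alone the counts were 28, 35, 16, 9, 6 and 4 in the same order. The share of all tested genes called rose with it too. It went from 5.67 to 12.2% for LPS at D1, from 7.01 to 14.8% at D3 and from 1.67 to 4.06% from D1 to D3. For the other fits listed in this section no such share was computed for these counts. In the 14 libraries with a GC deviation within 1 they were 26 for LPS at D3, 11 from D1 to D3, 6 from D7 to D21 and 2 for the response; 6 groups then hold 1 library, assumed to vary like the others. Without the FPKM filter they were 7 for LPS at D1, 8 at D3, 0 from D1 to D3 and 0 for the response. RLE scaling gave 2 from D1 to D3, and DESeq2 gave 4 from D7 to D21, 3 from D21 to D49 and 2 for the response. The causes were not tested.

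Leaving out each library in turn gave 2 to 14 genes for LPS at D1, 3 to 23 at D3, 17 to 28 at D7, 21 to 29 at D21, 17 to 26 at D49 and 37 to 40 averaged. It gave 0 to 8 from D1 to D3, 0 to 0 from D3 to D7, 0 to 2 from D7 to D21 and 0 to 2 from D21 to D49. It gave 32 to 37 from early to late control, 29 to 47 from early to late LPS and 0 to 2 for the response.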
